A study of Canis lupus familiaris with 5 samples.

Results

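Barcodes bearing transcripts of EPX, the eosinophil peroxidase, or MS4A2, the β chain of the high-affinity IgE receptor, were rare in canine whole marrow and numbered 201 of 16223 kept barcodes. They were selected on their measured UMIs (unique molecular identifiers, each marking 1 captured transcript) in the 3 whole-marrow libraries. Only barcodes showing 200 or more genes, with no more than 10% of UMIs from mitochondrial genes, were considered. A barcode had to carry at least 3 UMIs of EPX and MS4A2 together, less than 1% of its UMIs from ELANE (neutrophil elastase) and less than 0.5% from the red cell genes AHSP, HBM and CA1. Barcodes with more EPX than MS4A2 UMIs are called EPX-led and numbered 30, with 6, 22 and 2 in whole marrows 1, 2 and 3. Barcodes with more MS4A2 than EPX UMIs are called MS4A2-led and numbered 171, with 58, 45 and 68. No barcode was tied. The levels of these rule genes chose the members and are given as description only.

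Eosinophils, basophils and mast cells are granule-bearing cells of allergy and of defence against parasites. Eosinophils store peroxidase and other cationic proteins in their granules, and their marrow precursors depend on interleukin 5 for growth and survival. Basophils and mast cells carry the tetrameric IgE receptor, built from the α chain FCER1A, the β chain MS4A2 and a pair of γ chains FCER1G, and release histamine and proteases when antigen crosslinks bound IgE. The transcription factor GATA2 is required by mast cells and basophils in mouse, while CEBPE is required for terminal eosinophil and neutrophil maturation.

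The study profiled femoral marrow of 3 healthy wild-type dogs by droplet-based sequencing of the 3' ends of transcripts. Red cells were lysed in every suspension, whole marrow was loaded unsorted from all 3 dogs, and viable CD34-positive cells were sorted from marrows 2 and 3. Age, sex and breed are not given in the sources used here. The 5 libraries held 27953 barcodes, of which 24708 were kept, and from 46114431 to 70169186 UMIs each. Pairs of libraries shared from 4 to 12 barcodes. Levels are counts per 1000000 UMIs (CPM) of the summed barcodes of a set, and the comparison set is 1011 ELANE-high barcodes (at least 1% ELANE), numbering 509, 276 and 226 in whole marrows 1 to 3.

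Of the EPX-led barcodes, 21 of 30 also carried MS4A2 UMIs. Their median depth was 3194, 8014 and 17320 UMIs in whole marrows 1, 2 and 3. In ELANE-high barcodes, with median depths of 13690, 13120 and 19730 UMIs, 18 of 509, 9 of 276 and 9 of 226 carried an MS4A2 UMI. Among barcodes with at least 10% of UMIs from neutrophil secondary and tertiary granule genes, whose median depth was 2289, 2862 and 4154 UMIs, the share with an MS4A2 UMI was 4.53%, 3.31% and 3.86%. In red cell barcodes, with median depths of 39810, 41420 and 56730 UMIs, it was 2.20%, 1.22% and 0%. The share with an EPX UMI did not exceed 0.734% in any of these 3 populations. At the threshold itself, 24, 7 and 18 barcodes had exactly 3 UMIs of EPX and MS4A2 and entered, while 61, 18 and 31 had 2 and did not. The ELANE limit removed 3, 1 and 1 barcodes and the red cell limit 1, 1 and 0. Doublets were scored against simulated ones and retained, and the call marked 5 of 30 EPX-led barcodes (3 of 6 in whole marrow 1, 0 of 22 in whole marrow 2 and 2 of 2 in whole marrow 3) and 9 of 171 MS4A2-led barcodes.

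**Figure D1:**
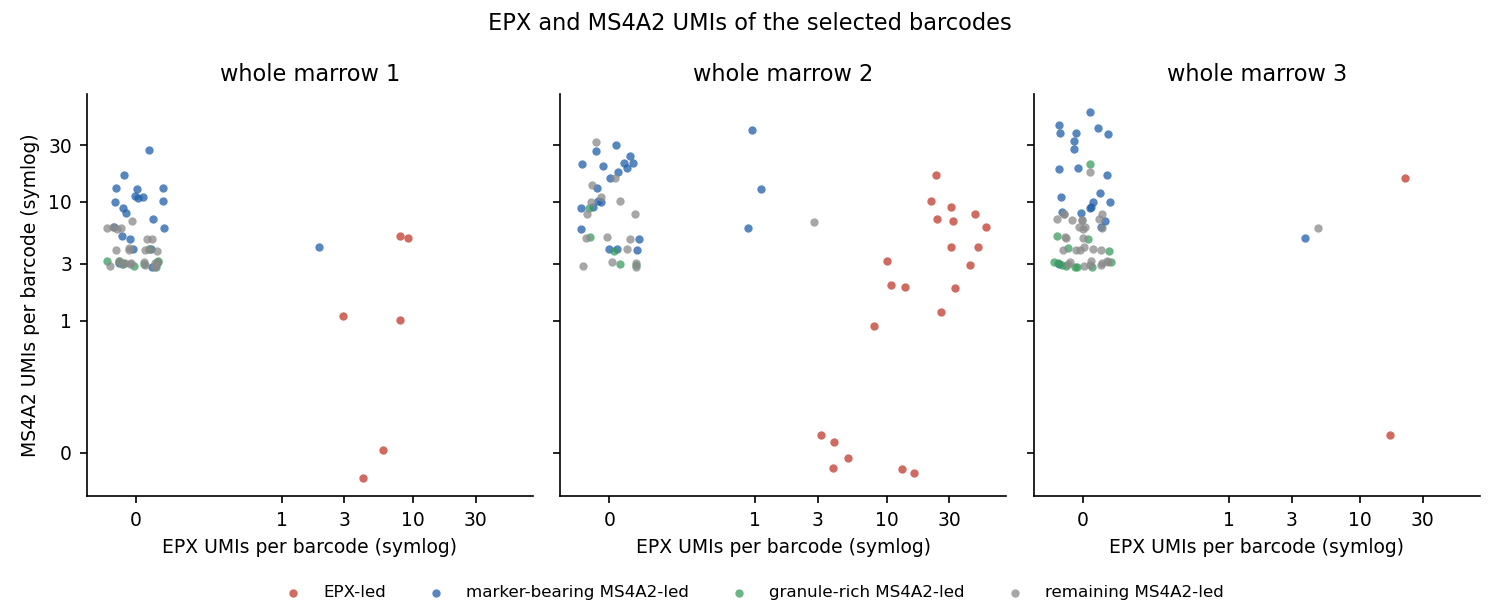
EPX UMIs (x axis) and MS4A2 UMIs (y axis) of each of the 201 selected barcodes, both on symlog axes with a small jitter, one panel per whole marrow. The 30 EPX-led barcodes (red) mostly carry both transcripts, while 164 of the 171 MS4A2-led barcodes (blue, green and grey by marker content) sit at 0 EPX UMIs.

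The EPX-led barcodes shared a small set of abundant transcripts across the 3 dogs. In whole marrow 1, barcodes called doublets held 29218, 28429 and 3261 of the 68475 EPX-led UMIs. In whole marrow 3, 2 of 2 EPX-led barcodes were called doublets. EPX itself stood at 554.9, 1649 and 1126 CPM in whole marrows 1, 2 and 3, against at most 0.489 in barcodes with at least 1% ELANE. The most abundant feature was an unnamed one, ENSCAFG00000031333, at 173700, 142000 and 189400 CPM. It made up at least 1% of UMIs in 29 of the 30 barcodes, with medians of 16.9%, 16.4% and 15.1%, and the sources used here give it no symbol. In whole marrow 2 its share ranged from 0.713% to 35.0%.

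ALOX15, an arachidonate lipoxygenase that eosinophils express strongly, was detected in 30 of 30 EPX-led barcodes, at 1198, 1392 and 1645 CPM. CAT, the peroxide-degrading catalase, was also found in all 30, at 525.7, 652.3 and 606.1. CEBPE was found in 23 barcodes, at 204.5, 373.2 and 259.7. IL5RA, the α chain of the interleukin 5 receptor, was found in 17 barcodes and stood at 58.4, 175.3 and 57.7 CPM, from 4, 54 and 2 counts. The Poisson 95% intervals of IL5RA were 15.9 to 149.6 in whole marrow 1 and 131.7 to 228.7 in whole marrow 2, which overlap. These intervals cover counting error only.

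ALAS1, ALPL, PLPP1 and PHC2 were among the other leading transcripts of the EPX-led barcodes. ALAS1, the first enzyme of heme synthesis outside the red cell lineage, stood at 1533, 1899 and 2540 CPM. ALPL, the tissue-nonspecific alkaline phosphatase, stood at 423.5, 691.3 and 490.6. PLPP1, a phospholipid phosphatase, stood at 481.9, 564.7 and 375.2. PHC2, a polycomb group protein, stood at 233.7, 353.8 and 606.1. All 4 were present in the EPX-led sum of every dog.

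Mast cell and basophil genes were unevenly represented among EPX-led barcodes. CMA1, the mast cell chymase, was detected in 23 of 30, at 3417, 740.0 and 259.7 CPM, but 211 of the 234 CMA1 counts of whole marrow 1 came from 1 barcode that was called a doublet. HPGD, which degrades prostaglandins, was found in 16 barcodes, HDC, the histamine-forming enzyme, in 10, and KIT, the stem cell factor receptor, in 13. FCER1A was found in 4, with 4, 1 and 0 counts, and CPA3, the mast cell carboxypeptidase, in 1, which was also called a doublet. GATA2 had no count in any of the 30 barcodes, which allows a share of up to 10% of barcodes with a GATA2 UMI. Of the 14 measured eosinophil granule and identity genes, PRG3, CCR3, ADGRE1, TGFA and AQP9 also had no count in these 30 barcodes. PRG2, RNASE2, RNASE3, CLC and SIGLEC8 carry no symbol in the deposited gene lists and were not analysed here. Beside EPX, which chose them, the EPX-led barcodes thus carried ALOX15 and IL5RA but neither GATA2 nor these 5 eosinophil genes, and they are called by their rule. CEBPE does not set them apart, since it was as high in the granule-rich barcodes described next, at 429.5, 360.0 and 297.3 CPM.

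Markers of other cell types were present to different degrees in EPX-led barcodes. Summed over 10 mature neutrophil markers, these barcodes held 0.0730%, 0.516% and 0.113% of UMIs, and over 9 monocyte and macrophage markers 0%, 0.00260% and 0.00289%. CD34 had no count in any EPX-led barcode. CD79A, a chain of the B cell receptor complex, stood at 8470, 6316 and 5051 CPM in EPX-led barcodes of whole marrows 1, 2 and 3 and at 5462, 4934 and 5280 in ELANE-high barcodes, while CD79B and MS4A1 had no count in the 30 EPX-led barcodes. In whole marrow 2, 1 EPX-led barcode held 21.9% of its UMIs in secondary and tertiary granule genes beside 23.3% in ENSCAFG00000031333, and another held 7.02% in granule genes and 2.39% in LYZ. Their part in the levels of granule genes was not tested.

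Of the 30 EPX-led barcodes, 14 were cycling, defined as at least 0.5% of UMIs from G2 and mitosis plus DNA replication genes. They numbered 1, 12 and 1 in whole marrows 1, 2 and 3, and 4 of the 30 lay between 0.4% and 0.6%. Whole marrow 2 alone had 10 or more on both sides, 12 cycling and 10 not, so the difference has no replicate check and no test. There the cycling barcodes were shallower, with a median of 4646 UMIs against 18270. Summed ALOX15 was 2689 CPM in cycling and 885.0 in non-cycling barcodes. SERPINB1, an inhibitor of neutrophil serine proteases, was 5135 against 2398, and CMA1 was 507.7 against 830.8. ENSCAFG00000031333 was 110000 against 154600 summed, but its median over barcodes was 23.3% against 15.7%, the opposite order. The cycling sum included a barcode of 24537 UMIs with 0.713% of this feature.

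The MS4A2-led barcodes were a mixture. The 10 measured basophil and mast cell markers other than MS4A2 (FCER1A, GATA2, HDC, CPA3, CMA1, HPGDS, SLC18A2, IL1RL1, KIT and ENPP3) split them into groups that were drawn after these values had been seen and are therefore described with no test. In 68 barcodes (22, 23 and 23 in whole marrows 1, 2 and 3, 39.8% of 171) the markers together held at least 0.1% of UMIs, and these are called marker-bearing. In 29 others (11, 5 and 13, 17.0%) at least 10% of UMIs came from neutrophil secondary and tertiary granule genes, and these are called granule-rich. The remaining 74 (25, 17 and 32, 43.3%) had neither. Few barcodes lay near the limit between them, since 79 had no marker UMI, 7 had a share from 0.05% to 0.2% and 52 had at least 1%.

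As a description, since MS4A2 UMIs chose these barcodes, the makeup is given by their number. Of barcodes with exactly 3 MS4A2 UMIs, 3 of 48 were marker-bearing. The count was 10 of 38 at 4 or 5 UMIs, 15 of 37 at 6 to 9 UMIs and 40 of 48 at 10 or more.

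**Figure D2:**
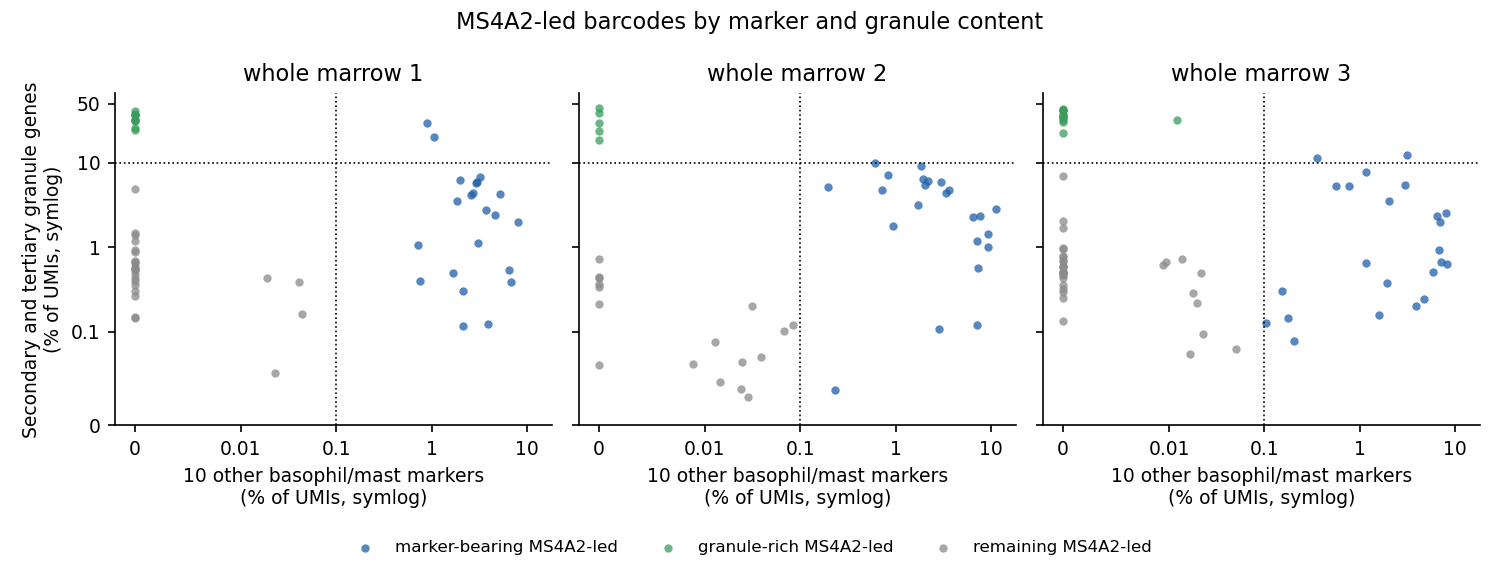
Share of UMIs from the 10 other basophil and mast cell markers (x axis) against share from secondary and tertiary granule genes (y axis), in percent on symlog axes, for each MS4A2-led barcode, one panel per whole marrow. Dotted lines mark 0.1% and 10%. The 29 granule-rich barcodes sit at or near 0 on the x axis. The 68 marker-bearing ones lie at or right of 0.1% by definition. They are not separate at that line, where barcodes at 0.0844% and 0.104% lie on either side.

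The granule-rich barcodes carried neutrophil transcripts. CAMP, the cathelicidin of secondary granules, stood at 88770, 51990 and 93330 CPM in whole marrows 1, 2 and 3, and S100A8, a calprotectin subunit, at 130800, 123900 and 140700. The 10 mature neutrophil markers together held 19.9%, 16.7% and 20.5% of their UMIs, while the 10 basophil and mast cell markers held 0%, 0% and 0.00138%. Granule genes, CAMP and S100A8 among them, and a low share of these basophil and mast cell markers chose this group. Its values are therefore description only. The marker-bearing group also holds barcodes above 10% in granule genes, up to 29.7% in whole marrow 1. Among all granule-rich barcodes of these libraries, 14 of 5039, 5 of 2777 and 16 of 2696 had 3 or more MS4A2 UMIs. MS4A2 at 3 or more UMIs thus also occurred in barcodes with abundant neutrophil transcripts.

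Most of the remaining MS4A2-led barcodes carried lysozyme, and a minority carried antigen presentation genes. LYZ, which encodes lysozyme, stood at 26810, 10800 and 27630 CPM, and it made up at least 1% of UMIs in 22 of 25, 8 of 17 and 27 of 32 barcodes. In whole marrow 2 the other 9 held at most 0.0121% of LYZ and contributed 269156 of the 436191 UMIs of that sum. DLA-DRA, an MHC class II chain, stood at 1499, 605.2 and 1870, and MHC class II genes made up at least 0.5% of UMIs in 8, 5 and 15 barcodes, 28 of 74 in all. The 9 monocyte and macrophage markers held 0.0998%, 0.0328% and 0.0751% of their UMIs. These barcodes contributed most of the MS4A2-led UMIs, 299606 of 465505, 436191 of 564538 and 567449 of 964641 in whole marrows 1, 2 and 3.

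The marker-bearing barcodes carried transcripts known from mast cells and basophils in all 3 dogs. CPA3 was detected in 64 of 68 and stood at 12110, 19940 and 12990 CPM in whole marrows 1, 2 and 3. CMA1 was detected in 61, at 17390, 19580 and 17640, and HPGD in 66, at 2301, 4047 and 1413. The markers that chose this group include CPA3, CMA1 and FCER1A, and GATA2, HDC and KIT below, so their presence is description only. HPGD is not among those markers. The IgE receptor chain FCER1A stood at 1645, 2625 and 1449, and its partner MS4A2, a rule gene, at 2082, 3480 and 1857. The γ chain FCER1G was the more variable, at 41.7, 686.1 and 190.0, from 4, 69 and 48 counts.

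Regulators and receptors of the marker-bearing barcodes were detected in part of them. GATA2 was found in 29 of 68, at 104.1, 129.3 and 91.1 CPM. MITF, a transcription factor required by mast cells in mouse, had no count in the 68, which allows a share of up to 4.41% of barcodes. It was found in the remaining MS4A2-led barcodes at 6.68, 11.5 and 19.4. In whole marrows 1 and 2 the marker-bearing sums held 96044 and 100572 UMIs. A limit of 3 counts in those sums is above the levels of the remaining barcodes, so no difference can be read there. HDC was found in 15 of 68, at 124.9, 129.3 and 87.1. IL3RA, the α chain of the interleukin 3 receptor, stood at 322.8, 845.2 and 597.8, and CSF2RB, the β chain shared by the receptors for interleukin 3, interleukin 5 and GM-CSF, at 916.2, 1312 and 875.0. KIT was low, at 31.2, 9.94 and 51.5, from 3, 1 and 13 counts. IL4, IL13, IL6 and HPGDS had no count, with the same limit of 4.41% of barcodes. TPSAB1 and TPSB2, the mast cell tryptases, carry no symbol in the deposited gene lists and were not analysed here, so mast cells and basophils were not separated by them.

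Proteases outside the marker list were also abundant in marker-bearing barcodes. CTSC, the cathepsin that activates granule serine proteases, stood at 2041, 3112 and 4965 CPM. DPP4, a dipeptidyl peptidase of the cell surface, stood at 1072, 974.4 and 752.2. CXCR4, the receptor for the marrow chemokine CXCL12, stood at 4946, 4455 and 2613. The 10 mature neutrophil markers held 2.80%, 2.17% and 0.801% of UMIs in these barcodes, and MMP9 led that sum.

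**Figure D3:**
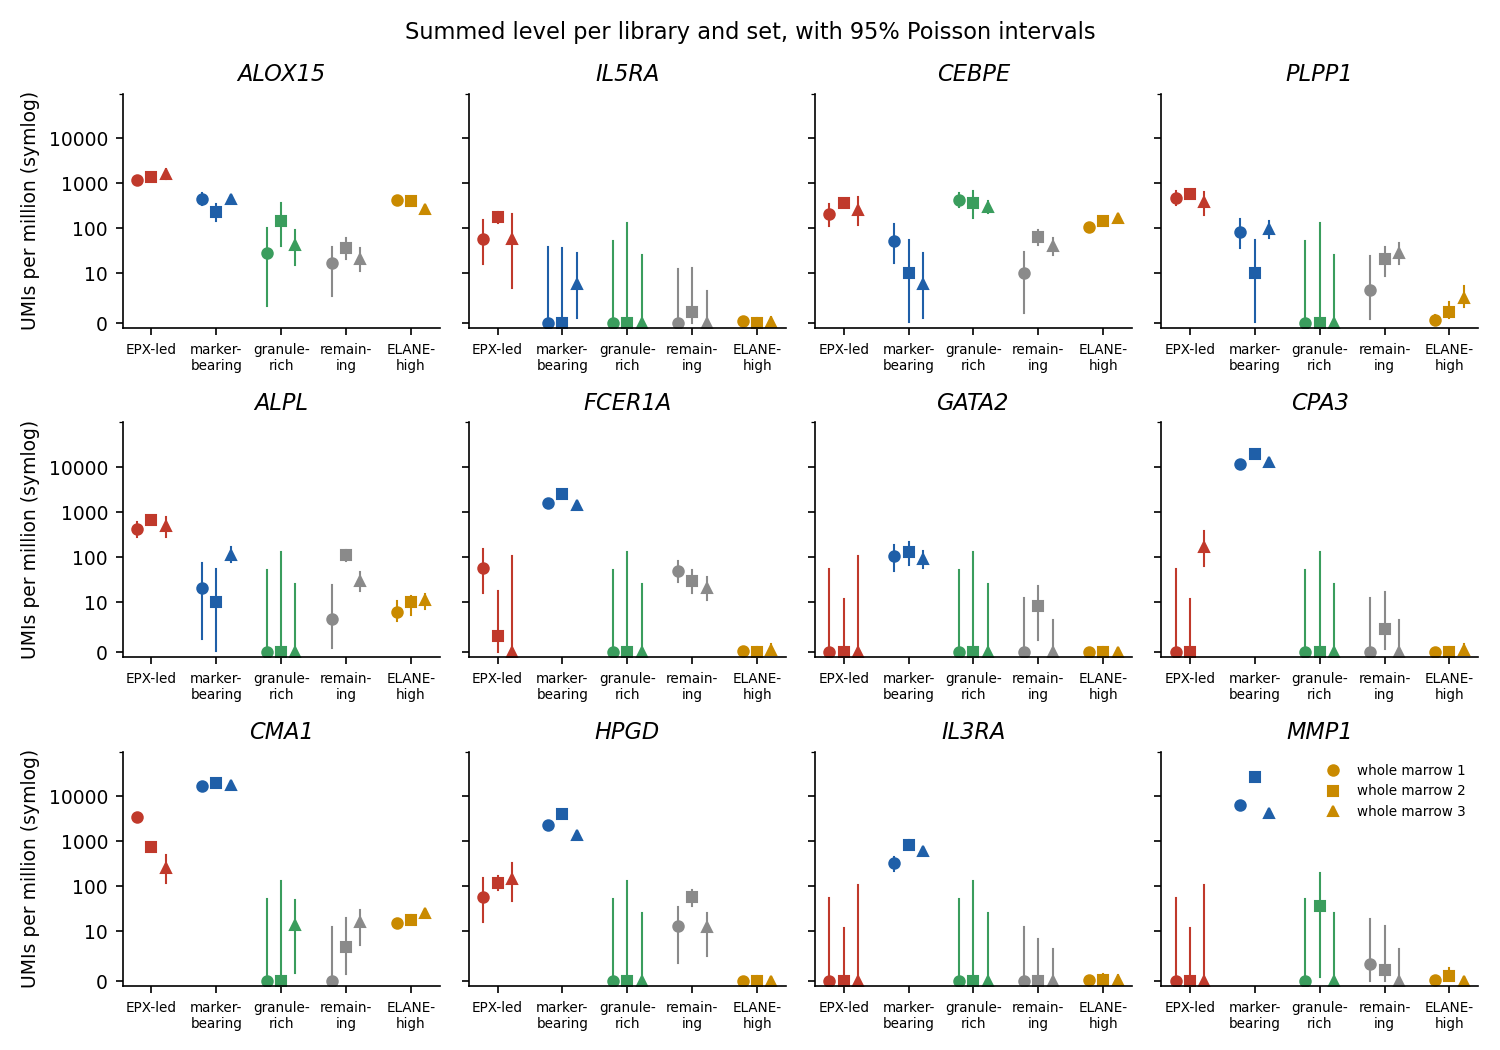
Level of 12 genes in CPM (y axis, symlog) in each set (x axis) and whole marrow (symbol), with Poisson 95% intervals that cover counting error only. ALOX15, IL5RA, PLPP1 and ALPL are highest in EPX-led barcodes, and FCER1A, CPA3, HPGD, IL3RA and MMP1 in marker-bearing MS4A2-led barcodes of every dog. FCER1A and CPA3 are among the markers that chose the marker-bearing group.

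MMP1, the interstitial collagenase, divided the marker-bearing barcodes further. It stood at 6445, 27730 and 4312 CPM in whole marrows 1, 2 and 3. Barcodes with at least 10 MMP1 UMIs (MMP1-high) numbered 11, 20 and 12, and those with fewer (MMP1-low) 11, 3 and 11, a division also made after the values were seen and not tested. The summed MMP1 level was 23700, 45160 and 16800 in MMP1-high barcodes and 57.1, 0 and 31.9 in MMP1-low ones. MMP1-high barcodes were shallower, with medians of 2042, 3107 and 3108 UMIs against 5184, 11700 and 13520. They were cycling in 0, 2 and 4 cases, against 4, 0 and 6 of the MMP1-low barcodes.

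Several transcripts went with MMP1 in all 3 dogs. MMP9, a gelatinase, stood at 35880, 34290 and 26380 CPM in MMP1-high barcodes and at 784.6, 0 and 765.5 in MMP1-low ones. CPA3 was 17000, 27250 and 27730 against 10300, 8297 and 7942. IL3RA was 924.9, 1231 and 1427 against 99.9, 231.9 and 313.7, and FCER1A was 3045, 3562 and 2699 against 1127, 1134 and 1021. RGS1, a regulator of G protein signalling, was 385.4, 615.3 and 573.9 against 28.5, 0 and 26.6, and the chemokine CCL4 was 963.5, 356.2 and 294.7 against 28.5, 0 and 0. In all 3 dogs these 6 genes were higher on the MMP1-high side, while the part of depth in them was not tested.

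Other transcripts stood higher in the MMP1-low sum of each dog, though some from few counts. LMO4, a LIM domain transcriptional regulator, stood at 0, 97.2 and 31.0 CPM in MMP1-high and at 242.5, 747.2 and 260.5 in MMP1-low barcodes. ENPP3, the surface enzyme known as CD203c, was 0, 16.2 and 93.1 against 85.6, 360.7 and 223.3. HDC was 0, 48.6 and 62.0 against 171.2, 257.7 and 95.7. The MMP1-high sum of whole marrow 1 held only 25948 UMIs. A level of 0 there allows up to 3 counts in those UMIs, which is above the 85.6 CPM of ENPP3. The order of ENPP3 in that dog is thus open, and counting error in the HDC levels of whole marrow 3 was not tested. CMA1 had no common order, at 12060, 19140 and 27640 in MMP1-high and 19360, 20280 and 14220 in MMP1-low barcodes.

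**Figure D4:**
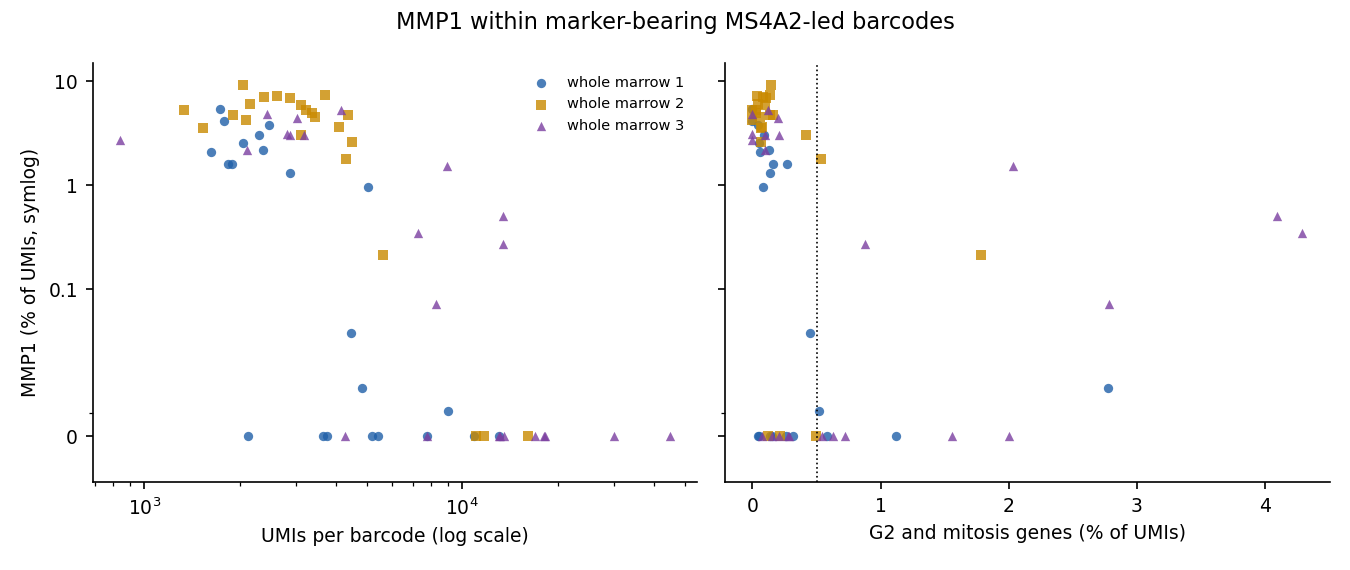
Share of UMIs from MMP1 (y axis, percent, symlog) in each of the 68 marker-bearing MS4A2-led barcodes. The x axes are total UMIs (left, log scale) and the share from G2 and mitosis plus DNA replication genes (right, percent, with the 0.5% line). The label of the right axis leaves out the DNA replication genes. The high MMP1 shares lie among the shallower barcodes and mostly left of the cycling line.

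The same rule was applied to the CD34-sorted libraries, which come from the dogs of whole marrows 2 and 3. No barcode of 4720 and none of 3765 was EPX-led, which allows shares of up to 0.0636% and 0.0797%. In whole marrow the EPX-led share was 0.0823% (exact Clopper-Pearson 95% interval 0.0302 to 0.179), 0.480% (0.301 to 0.726) and 0.0461% (0.00558 to 0.166). These intervals cover counting error only, and each dog gave 1 library. The difference in means of 0.203 percentage points was not significant (exact two-sided permutation test over the 5 libraries, p = 0.3). The smallest p this design allows is 0.1, and the test treats libraries of 1 dog as independent.

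MS4A2-led barcodes made up 2.75% and 3.11% of the sorted libraries (130 and 117 barcodes) and 0.795%, 0.981% and 1.57% of whole marrows 1, 2 and 3. The exact 95% intervals were 2.31 to 3.26 and 2.58 to 3.71 in the sorted libraries and 0.604 to 1.03, 0.717 to 1.31 and 1.22 to 1.98 in whole marrow, for counting error only. The means were 2.93% ± 0.250 (SD, n = 2) and 1.11% ± 0.402 (SD, n = 3), and the exact permutation p was 0.1, the smallest the design allows. The sorted barcodes were deeper, with median depths of 18920 and 19260 UMIs against 6660, 5613 and 12220. When every barcode was thinned to 1000 UMIs, which left out 1137, 393, 102, 8 and 15 shallower barcodes, the order reversed to 0.0212% and 0.0800% in sorted against 0.179%, 0.477% and 0.354% in whole marrow (exact permutation p = 0.2), from 1, 3, 11, 20 and 15 barcodes. No order can be read from these shares.

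The sorted MS4A2-led barcodes also differed in what else they carried, given here as description. None reached 1% of UMIs in the 10 other basophil and mast cell markers, and their highest shares were 0.185% and 0.330%. CPA3 stood at 12.7 and 48.5 CPM in sorted libraries 1 and 2, against 2498, 3555 and 3402 in MS4A2-led barcodes of whole marrow. CMA1 was 36.3 and 21.1 against 3588, 3493 and 4631. GATA3, a transcription factor of T cells that mast cell and basophil precursors also use in mouse, was higher in the sorted barcodes, at 122.1 and 75.1 against 21.5, 44.3 and 13.5. IL17RB, the receptor for interleukin 25, stood at 149.9 and 81.9 against 10.7, 24.8 and 20.7. FCER1A was 162.9 and 223.7 against 371.6, 490.7 and 391.9.

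The EPX-led and MS4A2-led barcodes were then compared across all genes on UMIs summed per library and set, with the library as a block. Only whole marrow 2 had the 10 or more EPX-led barcodes required, with 22 barcodes and 308124 UMIs, so the EPX-led side of this test is 1 sum, assumed to vary like the sums of the other sets. Of 7031 genes tested, 440 (6.26%) passed an adjusted p of 0.05 in edgeR's quasi-likelihood test. They were 251 higher (3.57%) and 189 lower (2.69%) in EPX-led barcodes. Without TMM scaling the median of all genes shifted by -0.28 on the log2 scale, and the split was 144 higher and 279 lower. The MS4A2-led sum holds the granule-rich and remaining barcodes described above, and their part in each difference was not tested. Without whole marrow 1, which lacks an EPX-led sum and enters only through the other sets, 207 genes passed.

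Eosinophil genes were higher in the EPX-led sum. Of 8 tested eosinophil granule and identity genes, 4 were called higher and 0 lower, with a median log2 difference of 0.97 against -0.08 over all genes (0.20 with the gene at 0 counts set to its bound). Without TMM scaling and without whole marrow 3 the counts were 3 and 1. ALOX15 was 1392 CPM in EPX-led and 76.2 in MS4A2-led barcodes of whole marrow 2, a log2 difference of 4.03 (SE 0.40, adjusted p = 2.7e-05). IL5RA was 175.3 against 1.77, the latter from 1 count, a ratio of 98.9 with a counting interval from 17.0 to 3979 (adjusted p = 9.4e-06). CEBPE was 373.2 against 69.1, a log2 difference of 2.63 (SE 0.31, adjusted p = 5.4e-06). CAT was 652.3 against 375.5, a log2 difference of 1.01 (SE 0.29, adjusted p = 0.036), a call that 11 of 13 alternatives ended. In whole marrows 1 and 3, outside this test, ALOX15, IL5RA and CEBPE were also higher in EPX-led barcodes of both dogs. The EPX-led UMIs of those dogs come mostly from called doublets.

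Among the other transcripts higher in the EPX-led sum were PLPP1, LPCAT3, ALOX5AP, PHC2 and ALPL. PLPP1 was 564.7 against 17.7 CPM in whole marrow 2 (log2 difference 5.04, SE 0.39, adjusted p = 2.9e-09). LPCAT3, which reacylates membrane phospholipids, was 64.9 against 3.54, the latter from 2 counts, a ratio of 18.3 with a counting interval from 4.45 to 161.7 (adjusted p = 0.00011). ALOX5AP, the activator of leukotriene synthesis, had a log2 difference of 2.16 (SE 0.30, adjusted p = 4.5e-05). Of 10 tested lipid mediator genes, 2 were higher and 2 lower (HPGD and PLA2G4A), with a median of -1.72 (-0.90 with genes at their bounds). Of 8 tested proteoglycan synthesis genes, CHPF and CHSY1, both of chondroitin synthesis, were called higher and none lower, but no gene of the list was called without whole marrow 1 or in DESeq2. PHC2 was 353.8 against 30.1 (log2 difference 3.70, SE 0.32, adjusted p = 1.7e-08). ALPL was 691.3 against 86.8 (log2 difference 3.70, SE 0.62, adjusted p = 0.033), but the adjusted p was 0.22 without called doublets.

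Genes of endoplasmic reticulum folding and secretion were higher in the EPX-led sum in larger number than those of any other list tested in this comparison. Of 29 tested, 20 were called higher and 0 lower, against 3.57% of all genes called higher, with a median log2 difference of 1.40 against -0.08 over all genes. The difference is not particular to EPX-led barcodes. Against ELANE-high barcodes, the EPX-led sum had 9 of the 29 higher and 5 lower, with a median of -0.09 against -0.12 over all genes. The MS4A2-led sums had 2 higher and 22 lower, with a median of -1.39. HSP90B1, the chaperone GRP94, was 3703 CPM in EPX-led and 1013 in MS4A2-led barcodes of whole marrow 2 (log2 difference 2.05, SE 0.32, adjusted p = 0.00016). CALR, a lectin chaperone, was 801.6 against 198.4 (log2 difference 2.15, SE 0.30, adjusted p = 4.2e-05). MANF, a secreted factor of the folding stress response, was 707.5 against 164.7 (log2 difference 2.22, SE 0.29, adjusted p = 2.0e-05). In whole marrows 1 and 3, outside the test, HSP90B1 stood at 2351 and 2713 in EPX-led against 831.4 and 823.1 in MS4A2-led barcodes. Called doublets gave most EPX-led UMIs of those dogs. Without TMM scaling 19 of 29 were higher and 0 lower. With sums of at least 2 barcodes, an alternative chosen after seeing the data, 18 of 27 were higher and 0 lower, and 10 of 28 and 0 when whole marrow 2 was then left out.

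**Figure D5:**
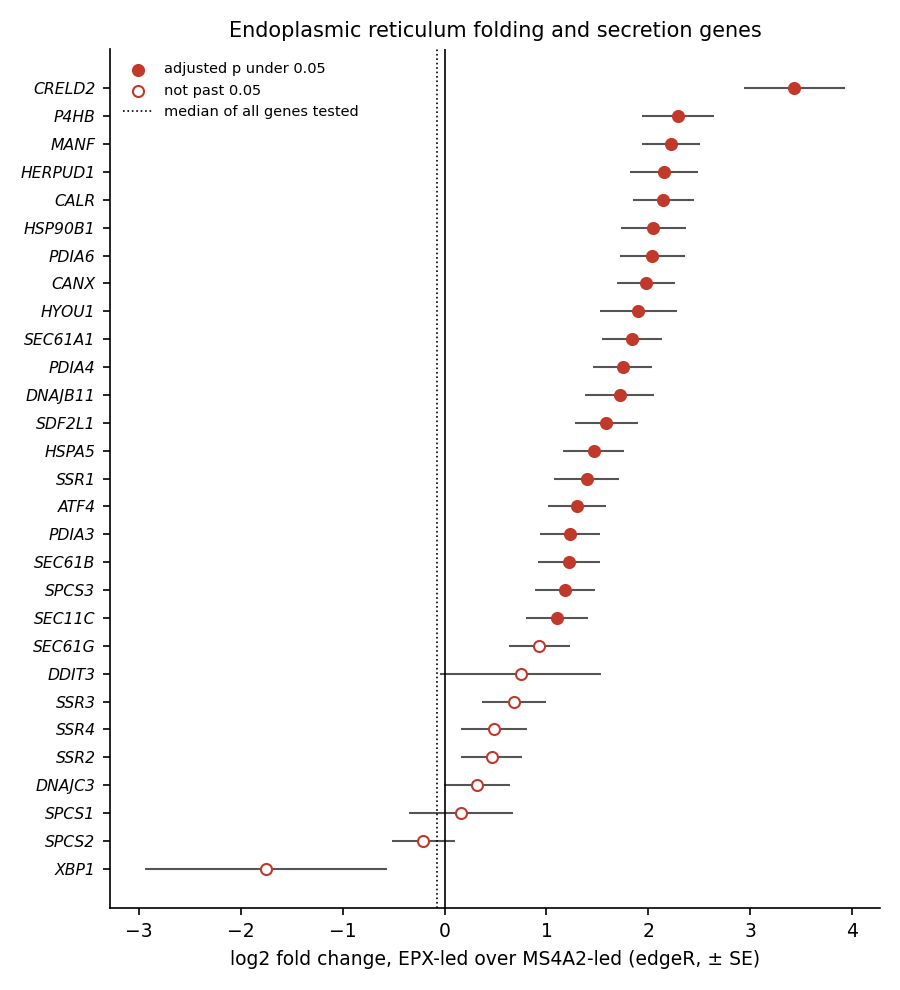
Log2 difference between EPX-led and MS4A2-led sums (x axis, edgeR, bars are ± SE) for the 29 tested genes of endoplasmic reticulum folding and secretion. The 20 filled points passed an adjusted p of 0.05 and all lie above 0, and the dotted line is the median of all genes tested at -0.08.

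Some IgE receptor and mast cell genes were lower in the EPX-led sum, FCER1A, FCER1G, CPA3, CMA1 and HPGD among them. Of 14 tested genes of the IgE receptor and its signal chain, 0 were higher and 3 lower, with a median log2 difference of -1.62 (-0.93 with genes at 0 counts set to their bounds). FCER1A was 3.25 CPM in EPX-led barcodes, from 1 count, and 490.7 in MS4A2-led barcodes of whole marrow 2, which is 151.2 times higher with a counting interval from 26.9 to 5993 (adjusted p = 3.1e-07). FCER1G fell by 2.96 on the log2 scale (SE 0.49, adjusted p = 0.00027), and GAB2, an adaptor of the receptor, was called lower from 2 counts, a call lost without whole marrow 1. Of 12 tested basophil and mast cell granule and mediator genes, 2 were higher (ALOX5AP and CD63) and 3 lower, with a median of -0.15. CPA3 had no count in the EPX-led sum and 3555 CPM in the MS4A2-led one, at least 365.1-fold higher against a floor of 3 counts per library. CMA1 was 740.0 against 3493 (adjusted p = 0.00042), but with sums of at least 2 barcodes the adjusted p was 0.36. GATA2, at 0 against 30.1 CPM, did not pass (adjusted p = 0.068), nor did HDC, at 48.7 against 30.1 (adjusted p = 0.45), KIT, at 55.2 against 53.1 (adjusted p = 0.47), or GATA1, at 58.4 against 122.2 (adjusted p = 0.92).

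Few receptors passed the test. Of 16 tested cytokine and chemokine receptors, IL5RA was the 1 higher and IL3RA, CSF2RB, CXCR4 and IFNGR1 the 4 lower in the EPX-led sum, with a median of -4.65 (-0.54 with 8 genes at their bounds). The IFNGR1 call was lost without whole marrow 1. IL3RA had no count in EPX-led barcodes of any dog and stood at 150.6 CPM in MS4A2-led barcodes of whole marrow 2, at least 15.5-fold higher. CSF2RB was 71.4 against 251.5 (log2 difference -1.54, SE 0.38, adjusted p = 0.013). Of 20 tested lineage transcription factors, CEBPE was the 1 called higher and 0 were lower. MMP1, which had no count in EPX-led barcodes, was at least 507.8-fold higher in MS4A2-led barcodes, and MMP9 fell by 5.98 (SE 0.75, adjusted p = 0.0022).

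Genes that the remaining MS4A2-led barcodes carried were also lower in the EPX-led sum. LYZ was 976.9 against 10070 CPM (log2 difference -3.60, SE 0.52, adjusted p = 8.7e-05). CD74, the MHC class II chaperone, had no count in the EPX-led sum, and MS4A2-led barcodes were at least 18.9-fold higher. Of 9 tested neutrophil primary granule genes, SERPINB1, CD63 and GUSB were higher and BPI and LYZ lower, and of 12 tested secondary and tertiary granule genes, MMP9 was the 1 called lower, against 2 without whole marrow 1 and 3 without whole marrow 3. Of 47 tested G2 and mitosis genes, 0 were higher and 11 lower, with a median of -0.84, and 2 were lower without the block, 2 in DESeq2, 1 without whole marrow 1 and 1 at 10 or more UMIs of EPX and MS4A2. Among barcodes of whole marrow 2, 12 of 22 EPX-led (54.5%) and 10 of 45 MS4A2-led ones (22.2%) were cycling. The cycling score also counts DNA replication genes, so it is not the same measure as the G2 and mitosis list. MKI67, the proliferation antigen, was 136.3 against 379.1 (log2 difference -1.29, adjusted p = 0.022). Of 36 tested DNA replication genes, MCM6 and MCM7 were higher and 0 lower (1 higher without whole marrow 1), and of 55 tested ribosomal protein genes none passed in this edgeR test. Over all genes tested, 3.57% were higher and 2.69% lower.

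Against the ELANE-high barcodes, the early neutrophil precursors of the same marrow by their elastase level, 1349 of 7031 genes (19.2%) passed for the EPX-led sum of whole marrow 2. They were 611 higher (8.69%) and 738 lower (10.5%). Without TMM scaling the median of all genes shifted by 0.73 and the split was 1358 higher and 192 lower, so directions near 0 depend on the scaling. This comparison shares the EPX-led sum with the previous one.

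Transcripts with no or almost no count in ELANE-high barcodes separated the EPX-led sum from them. Not all of these set it apart from MS4A2-led barcodes. HPGD, HDC, CSF2RB, LMO4 and CMA1 were also called higher in MS4A2-led than in ELANE-high barcodes. HPGD, CSF2RB and CMA1 were called lower in the EPX-led than in the MS4A2-led sum, while IL5RA and PLPP1 were called higher. IL5RA was 175.3 CPM in EPX-led barcodes and had no count in ELANE-high barcodes of whole marrow 2, at least 232.8-fold higher (adjusted p = 7.6e-08). HPGD was at least 159.5-fold higher, GATM, an enzyme of creatine synthesis, at least 133.6-fold, and HDC at least 64.7-fold. PLPP1 was 564.7 against 2.26 (log2 difference 7.45, SE 0.39, adjusted p = 1.1e-12). CSF2RB was 71.4 against 1.00 (log2 difference 5.10, SE 0.51, adjusted p = 1.1e-07), and LMO4 was 116.8 against 3.77 (log2 difference 4.36, SE 0.44, adjusted p = 1.4e-07). CMA1 was 740.0 against 18.1 (log2 difference 4.65, SE 0.33, adjusted p = 2.6e-10). ALOX15 was 1392 against 413.8 (log2 difference 1.25, SE 0.37, adjusted p = 0.028), and the adjusted p was 0.067 without whole marrow 1, 0.075 in DESeq2 and 0.14 without the block. CEBPE, at 373.2 against 143.8 (adjusted p = 0.098), and CAT, at 652.3 against 331.8 (adjusted p = 0.51), did not pass. FCER1A, at 1 count against 0, did not pass (adjusted p = 0.35).

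Neutrophil granule transcripts were lower in the EPX-led sum than in ELANE-high barcodes. The 2 sets were chosen by opposite limits on ELANE, so lower levels of genes that go with ELANE can follow from that choice. The part of the choice in these differences was not tested. SLPI, a protease inhibitor, was 172.0 against 99130 CPM in whole marrow 2 (log2 difference -9.62, SE 0.75, adjusted p = 1.5e-09). In whole marrows 1 and 3, where called doublets gave most EPX-led UMIs, SLPI was 277.5 and 288.6 against 145800 and 112000. GZMB, a serine protease, was 77.9 against 6818 (log2 difference -7.55, SE 0.61, adjusted p = 5.8e-08), and BPI, an antibacterial protein of primary granules, was 58.4 against 1344 (log2 difference -4.84, SE 0.59, adjusted p = 0.00012). LYZ fell by 4.54 (SE 0.53, adjusted p = 2.3e-06) and CAMP by 3.09 (SE 0.76, adjusted p = 0.028). The CAMP call was lost in 6 of 13 alternatives, among them no block, no TMM scaling and leaving out whole marrow 1, with an adjusted p of up to 0.53.

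In the same comparison, 8.69% of all genes were higher and 10.5% lower. By list, it gave 2 higher and 0 lower of 8 tested eosinophil genes and 4 higher and 2 lower of 12 basophil and mast cell genes. The higher ones were HDC, CMA1, HPGD and ENPP3. Of 14 IgE receptor and signal genes 3 were higher (LYN, SYK and ITPR1) and 0 lower, all 3 calls being lost without whole marrow 1 and in DESeq2, and those of LYN and SYK also at 10 or more UMIs. Of 20 transcription factors 5 (RUNX1, IKZF1, IKZF2, LMO4 and GFI1B) were higher and 0 lower, and of 16 receptors 3 (IL5RA, CSF2RB and CXCR4) and 0. Primary granule genes numbered 1 higher and 4 lower of 9, and secondary and tertiary ones 0 and 4 of 12. Endoplasmic reticulum genes numbered 9 higher and 5 lower of 29, which became 14 and 0 without TMM scaling and 5 and 4 without whole marrow 1. G2 and mitosis genes numbered 3 and 11 of 47, against 11 and 3 without TMM scaling. Ribosomal protein genes numbered 0 and 22 of 55, against 3 and 8 without TMM scaling, 39 lower without whole marrow 1 and 6 lower without whole marrow 3. DNA replication genes numbered 3 and 4 of 36, near the shares of all genes. Lipid mediator genes numbered 2 and 1 of 10 (1 and 0 without whole marrow 1) and proteoglycan synthesis genes 2 and 1 of 8.

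MS4A2-led barcodes formed sums in all 3 dogs, so their comparison with ELANE-high barcodes rests on 3 pairs of sums. Here 3574 of 7031 genes (50.8%) passed, 1777 higher (25.3%) and 1797 lower (25.6%). Without TMM scaling the median shifted by 1.01 and 4204 genes were higher and 282 lower. The genes with the largest positive differences were those of the marker-bearing barcodes.

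CPA3 stood at 2498, 3555 and 3402 CPM in MS4A2-led barcodes of whole marrows 1, 2 and 3, and at 0, 0 and 0.421 in ELANE-high barcodes. Summed over the dogs this is 6452 counts against 2, and edgeR's adjusted p was 7.9e-18. HPGD, at 483.3, 765.2 and 377.3, had no count in ELANE-high barcodes and was at least 2751-fold higher. DPP4, at 221.3, 173.6 and 197.0, was at least 1054-fold higher by the same floor, taken over the 3 dogs. FCER1A was 371.6, 490.7 and 391.9 against 0.271, 0 and 0.421 (log2 difference 9.42, SE 0.34, adjusted p = 4.8e-17). CMA1 was 3588, 3493 and 4631 against 15.3, 18.1 and 24.8 (log2 difference 6.65, SE 0.25, adjusted p = 8.1e-17). GATA2, at 21.5, 30.1 and 23.8, had no count in ELANE-high barcodes and was at least 134.7-fold higher (adjusted p = 2.5e-08), although DESeq2 gave an adjusted p of 0.081. The sums of the 2 sets did not overlap in these 6 genes, which were drawn from the largest differences and the lists. How many of all genes had no overlap was not computed, and 50.8% of the 7031 genes were called.

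The IgE receptor and its signal chain gave 10 genes higher and 0 lower of 14 tested, with a median log2 difference of 1.40 against 0.04 over all genes. Of all genes tested, 25.3% were higher and 25.6% lower. FCER1G was 43.0, 189.5 and 176.2 CPM against 1.22, 11.3 and 7.37 (log2 difference 3.47, SE 0.23, adjusted p = 8.9e-12). The kinases LYN (log2 difference 2.87, SE 0.30, adjusted p = 5.8e-08) and SYK (log2 difference 1.61, SE 0.19, adjusted p = 1.2e-07), which relay the receptor's signal, were also higher. The remaining MS4A2-led barcodes held 14 of 20, 26 of 107 and 109 of 170 FCER1G counts of these sums, and MITF, which was called higher, had no count in the marker-bearing barcodes. CSF1R, the receptor for the macrophage growth factor, was also called higher, with 9 of 10, 8 of 8 and 52 of 54 counts in the remaining barcodes. Of 16 receptors, 9 were higher and 0 lower. CSF2RB was 214.8, 251.5 and 255.0 against 1.08, 1.00 and 1.26 (log2 difference 6.64, SE 0.26, adjusted p = 1.5e-16). CRLF2, a chain of the receptor for thymic stromal lymphopoietin, was 23.6, 30.1 and 15.6 against 2 counts in all, a ratio of 173.8 with a counting interval from 45.3 to 1481 (adjusted p = 1.0e-07). CXCR4 was 1248, 896.3 and 823.1 against 23.0, 20.8 and 24.0 (log2 difference 4.41, SE 0.20, adjusted p = 5.4e-15). KIT did not pass, at 12.9, 53.1 and 20.7 against 5.68, 9.79 and 9.90 (adjusted p = 0.091).

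Among 20 transcription factors, 11 were higher and 3 lower, against 25.3% and 25.6% of all genes tested. RUNX1, required for blood cell formation, was 79.5, 92.1 and 84.0 CPM against 5.95, 10.3 and 12.2 (log2 difference 2.18, SE 0.23, adjusted p = 2.3e-08). The 3 lower ones were CEBPE, GFI1 and MYB. GATA1 did not pass (adjusted p = 0.12), at 2.15, 122.2 and 23.8 against 1.76, 1.00 and 0.421. It was thus high in whole marrow 2 and near the ELANE-high level in whole marrow 1. Of 12 basophil and mast cell genes 6 were higher (HDC, CPA3, CMA1, HPGD, ENPP3 and HRH4) and 5 lower, with a median of 3.12. Of 8 eosinophil genes 3 were higher (THBS1, SERPINB10 and VSTM1) and 3 lower (ALOX15, CEBPE and CAT), of which CAT turned to 0.32 higher on the log2 scale without TMM scaling.

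Primary granule and endoplasmic reticulum genes were mostly lower in the MS4A2-led sums, while secondary and tertiary granule genes were mixed. Opposite limits on ELANE chose these sets too, and the part of that choice in the granule genes was not tested. SLPI was 582.2, 203.7 and 496.6 CPM against 145800, 99130 and 112000 (log2 difference -9.25, SE 0.43, adjusted p = 4.6e-15), and the neutrophil peroxidase MPO fell by 5.65 (SE 1.12, adjusted p = 0.049). Primary granule genes numbered 1 higher and 7 lower of 9. Secondary and tertiary granule genes numbered 4 higher (MMP8, MMP9, CD177 and S100A12) and 3 lower (CAMP, SLPI and CHI3L1) of 12, and 3 and 5 without whole marrow 3. Endoplasmic reticulum genes numbered 2 higher and 22 lower of 29, with a median of -1.39, and 6 and 13 without TMM scaling. Ribosomal protein genes numbered 0 and 48 of 55, and 8 and 14 without it. G2 and mitosis genes numbered 18 and 3 of 47, 41 and 0 without it, and 13 and 1 without whole marrow 3. DNA replication genes numbered 1 and 11 of 36 (7 lower without whole marrow 2 and 6 without whole marrow 3), lipid mediator genes 5 and 3 of 10 (3 and 2 without whole marrow 1) and proteoglycan synthesis genes 2 and 1 of 8. Over all genes tested, 25.3% were higher and 25.6% lower. The lower counts of DNA replication and lipid mediator genes and the higher count of proteoglycan synthesis genes lie near these shares.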

How the data were processed

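The authors deposited unnormalized UMI counts of 20257 features for every barcode, 4432 of them under an identifier only. The file headers give Cell Ranger 7.0.1 as the program that wrote them, while the submitters' processing notes list 7.1.0 and the dog build CanFam 3.1. The annotation release and any removal of free RNA are not given in the sources used here. Libraries were made with the Chromium Single Cell 3' Kit v3.1, per the labels. No genome was used, so no coordinates or sequences are given.

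Members and gene lists were chosen with earlier results of these data known. Mitochondrial UMIs came from 13 genes. Each dog gave 1 whole-marrow library. Doublets were scored with scrublet in scanpy 1.11.5 at 0.8% per 1000 barcodes and retained, and leaving them out was an alternative.

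UMIs were summed per library and set with at least 10 barcodes, and the 7 sums of whole marrow entered one fit in edgeR 4.0.16 (R 4.3.3) with TMM factors, filterByExpr, the library as a block and a robust quasi-likelihood test, leaving 2 residual degrees of freedom. The block joins sets of the same dog, so the sums are paired by library. Adjusted p is Benjamini-Hochberg over all genes tested at 0.05, and the rule genes were left out of the calls. DESeq2 1.42.0 was an alternative. The test was tried on simulated counts. Named genes are, per comparison, the 10 highest and 10 lowest called genes with a symbol, the same direction in every library and at least 50 CPM in the higher set, from which the text draws, and members of the lists. Other genes named in the description of levels were chosen after their values were seen. Limits and floors for a count of 0 use 3 counts. Barcodes are not replicates, and PCR and capture share their source within a library. Numbers were computed with numpy 2.4.6, scipy 1.17.1 and pandas 2.3.3.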

Additional observations from a re-analysis of the deposited data

How the results depend on the processing

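In the comparison of EPX-led with MS4A2-led barcodes, 440 genes passed. The count was 114 at 10 or more UMIs of EPX and MS4A2, 167 in DESeq2 and 763 with sums of at least 2 barcodes, which were chosen after seeing the data. It ranged from 207 to 447 when a library was left out, and from 491 to 559 with sums of at least 2 barcodes. In EPX-led against ELANE-high barcodes, with 1349 genes, the count was 685 at 10 or more UMIs and 683 in DESeq2, and leaving out a library gave 1096 to 1251, or 971 to 1433 with sums of at least 2 barcodes. In MS4A2-led against ELANE-high barcodes, with 3574 genes, the count was 1841 at 10 or more UMIs, 2380 in DESeq2 and 2441 to 3476 with a library left out. Without the replicate block, which pairs sets of 1 dog, the 3 counts were 186, 902 and 2667. Of the 440 genes, 346 passed in the same direction with sums of at least 2 barcodes. The cause of these shifts was not tested.

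The MS4A2-led share in sorted minus whole marrow reversed from 1.82 to -0.286 percentage points at 1000 UMIs (exact permutation p = 0.2), and without a library ranged from 1.64 to 2.04. The EPX-led difference ranged from -0.281 to -0.0642 without a library. Reversed gene values, as log2 differences, were in EPX-led against ELANE-high CPA3 (5.84 without whole marrow 1 and 7.06 without whole marrow 2), SYK (-0.056) and RFC4 (0.21), all with sums of at least 2 barcodes and the last 2 without whole marrow 2. In MS4A2-led against ELANE-high they were CAT (0.32), MYC (0.76) and TYMS (0.18) without TMM scaling and PADI3 (-1.22) at 10 or more UMIs.

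EPX-led barcodes limit these results, since whole marrow 2 alone gave a sum. A fit of only the 2 sets compared and a fit without whole marrow 2 were not possible for the EPX-led comparisons, for lack of residual degrees of freedom and of an EPX-led sum. Cycling and non-cycling EPX-led barcodes were not tested, for want of a library pair.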

Other observations

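The unnamed feature ENSCAFG00000031333, which led the EPX-led barcodes, also made up at least 1% of UMIs in 25, 11 and 9 kept barcodes of whole marrows 1, 2 and 3 that the rule did not select. Of these, 22, 9 and 9 had no EPX UMI, and their median depth was 1118, 1293 and 6432 UMIs. It exceeded 10% of UMIs in 8, 5 and 0 of them. In CD34-sorted libraries 1 and 2 there were 0 and 5 such barcodes outside the rule. The 10 basophil and mast cell markers other than MS4A2 reached 1% of UMIs in 2, 0 and 0 whole-marrow barcodes outside the rule.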
